A study of Mus musculus with 8 samples.

Results

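The 45 genes described here drive or restrain cell division and DNA synthesis. They were taken by symbol from a list of cyclins, cyclin-dependent kinases (CDKs), CDK inhibitors, replication factors, mitotic genes and p53 pathway genes, and all 45 were found among the 55401 genes of the deposited table. RNA of kidney tissue from 8 male diabetic mice was sequenced after poly(A) selection, 1 library per mouse. The study names the renal cortex for RNA used in PCR, and only kidney or renal tissue for sequencing. The rFGF4 group (mice 1, 2, 3 and 5) received recombinant FGF4, an N-terminally truncated human growth factor that the study describes as non-mitogenic, and the vehicle group (mice 2, 3, 4 and 5) received PBS. The labels name a db/db model, in which the leptin receptor is defective, whereas the text of the study names streptozotocin-induced diabetes for the sequenced animals, and the values do not settle which applies. In the regimen described for mice of either model, injections of 1 mg/kg were given every other day for 8 weeks from 12 weeks of age. All 8 mice were diabetic, so the comparison is of rFGF4 with vehicle within diabetes and holds no healthy kidney.

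D-type cyclins with Cdk4 or Cdk6, and then E-type cyclins with Cdk2, phosphorylate the retinoblastoma protein and release E2F factors, which switch on the genes of DNA synthesis. The INK4 and CIP/KIP proteins hold these kinases back, and p53 induces some of the inhibitors after DNA damage. Most cells of the adult kidney are not dividing, and tubular cells re-enter the cycle after injury. The study measured Mki67 and Cdk4 by another assay as markers of proliferation, and the question here is whether transcripts of this machinery differed between the groups.

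The unit throughout is FPKM (fragments per kilobase of transcript, scaled to the mapped fragments of each library), which allows levels of different genes to be set side by side. Log2 fold changes are rFGF4 minus vehicle on the log2(FPKM + 1) scale and so understate the change of genes at low levels. rFGF4 mouse 1 and vehicle mouse 5 stood apart before any group comparison. Summed FPKM of 8 macrophage genes was 1273 in rFGF4 mouse 1 and 1805 in vehicle mouse 5, against 47.6 to 459 in the other libraries, and these were the 2 highest libraries for 8 of 8 of the genes. Summed FPKM of 7 tubular injury genes, among them Havcr1 and Lcn2, was 1060 in rFGF4 mouse 1, 374 in vehicle mouse 5 and 85.5 to 346 elsewhere, and 7 of 7 were highest in rFGF4 mouse 1. The sum of 16 lymphoid genes was 23992 in vehicle mouse 5, where 16 of 16 were highest, 2842 in rFGF4 mouse 1 and 31.5 to 1477 elsewhere. Igkc alone made up 22334.5 and 2640 of the sums in these 2 libraries, which were the 2 highest for 12 of the 16 genes. The 9 markers of kidney tubule and podocyte, which identify the tissue, summed to 1287 in rFGF4 mouse 1 and 1593 in vehicle mouse 5 against 2058 to 2398 in the others. The podocyte markers Podxl and Nphs1 did not share this order. Podxl was highest in rFGF4 mouse 1 (56.8 FPKM) and Nphs1 in vehicle mouse 5 (8.43 FPKM). The mitochondrially encoded share of summed FPKM was 19.0% in rFGF4 mouse 1, 24.4% in vehicle mouse 5 and 24.7% to 38.4% in the rest. Since tissue of mixed cell types was sequenced, more cells of a type and more RNA per cell cannot be told apart in any value below.

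None of the cell cycle genes differed between rFGF4 and vehicle at the threshold of the study, an unadjusted p under 0.05 with a change of at least 1.5-fold. The fit was made with limma across 15150 genes with at least 0.5 FPKM in 4 or more libraries, and 37 of the 45 genes passed this filter. Of the 37, 0 passed the threshold, against 1.52% of all tested genes (1.09% higher and 0.436% lower under rFGF4). That split of 165 higher and 66 lower genes depended on the scaling, and was 95 and 81 with median ratio scaling, 279 and 42 scaled to non-mitochondrial FPKM and 647 and 39 as TPM. At an unadjusted p under 0.05 alone the counts were 0 of 37 and 4.62% (3.56% higher and 1.06% lower), and 0 of the 37 had groups that did not overlap, against 3.33%. None of the 15150 genes passed an adjusted p of 0.05. With the filter dropped (30224 genes), or without vehicle mouse 2, 4 or 5, 1 gene passed in each fit, and it was not a cell cycle gene of the list. The fitted change was above 0 for 29 of the 37 and below 0 for 8, with a median of 0.15, while over all tested genes 10164 were above 0 and 4986 below, with a median of 0.09. For 10 of the 37 genes, Mki67, Cdk4 and Ccnb2 among them, the 95% interval held changes of 1.5-fold in both directions.

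**Figure D1:**
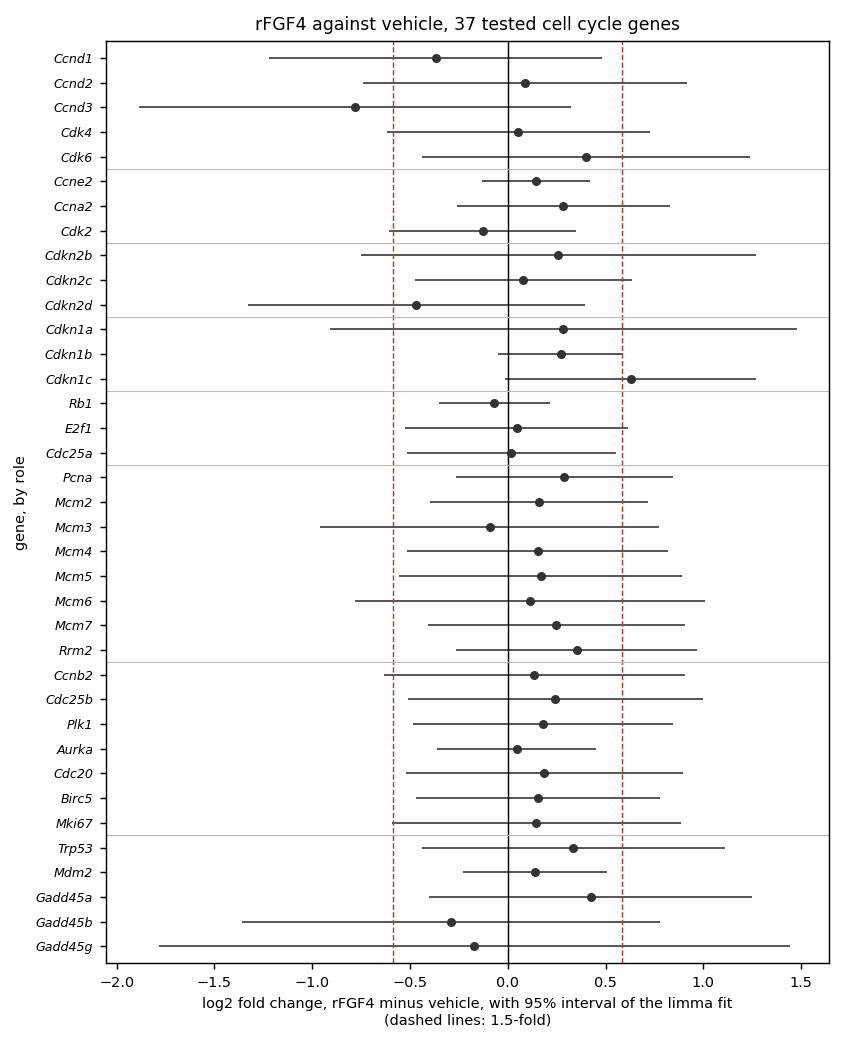
Fitted log2 fold change of the 37 tested cell cycle genes (dots; x axis, rFGF4 minus vehicle on the log2(FPKM + 1) scale) with the 95% interval of the limma fit (lines), ordered by role; dashed lines mark 1.5-fold. Every interval crosses 0, and the value farthest above 0 is that of Cdkn1c (0.63) and the one farthest below that of Ccnd3 (-0.78).

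The 8 genes that did not pass the filter were Ccne1, Cdkn2a, Cdk1, Ccnb1, Aurkb, Bub1, Bub1b and Top2a, and 6 of them act in mitosis. Their group means lay between 0.083 and 0.66 FPKM. When the filter was dropped and all 45 genes were tested, 0 of 45 had an unadjusted p under 0.05 in limma, against 4.06% of all 30224 genes of that fit.

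The mitotic genes varied widely between single mice within each group, and a difference between groups in either direction was not excluded. Mki67, which encodes the Ki-67 antigen of dividing cells (chr7:135689784-135716361), was at 1.84, 0.859, 0.381 and 0.469 FPKM in rFGF4 mice 1, 2, 3 and 5. In vehicle mice 2, 3, 4 and 5 it was at 0.227, 0.657, 0.246 and 1.82. One mouse in each group was high, and the 2 were at nearly the same level. The group means were 0.886 ± 0.667 (SD, n = 4) and 0.736 ± 0.747 (SD, n = 4), and the log2 fold change was 0.15 with a standard error of 0.32 (95% interval -0.59 to 0.89; two-sided exact permutation test, p = 0.657). It was -0.07 without rFGF4 mouse 1, 0.41 without vehicle mouse 5 and, in an alternative added after seeing the data, 0.19 without both (standard error 0.18), so no direction could be given.

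Ccnb2, a B-type cyclin that activates Cdk1 at entry into mitosis (chr9:70407692-70421547), had the same 5 highest libraries in the same order. Its FPKM was 3.36, 1.40, 0.711 and 0.992 in the rFGF4 mice and 0.818, 1.40, 0.640 and 2.44 in the vehicle mice. The groups overlapped, with a log2 fold change of 0.14 and a standard error of 0.34 (two-sided exact permutation test, p = 0.686). Its relative Ccnb1 (chr13:100778650-100786570) was too low to be tested, at 0.764, 0.383, 0.225 and 0.0848 FPKM in the rFGF4 mice and 0.0846, 0.177, 0.111 and 0.591 in the vehicle mice. Cdc25b, the phosphatase that activates CDK complexes before mitosis (chr2:131186949-131198497), had the highest mean of the tested mitotic genes. It was at 6.29, 2.64, 2.83 and 1.92 FPKM in the rFGF4 mice and 1.97, 2.87, 1.49 and 4.28 in the vehicle mice. Again rFGF4 mouse 1 and vehicle mouse 5 were highest and the other 6 mice overlapped. The log2 fold change was 0.24 with a standard error of 0.33 (two-sided exact permutation test, p = 0.571).

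rFGF4 mouse 1 and vehicle mouse 5 were the 2 highest libraries for 13 of 13 mitotic genes, from the kinases Plk1, Aurka and Aurkb and the checkpoint genes Bub1 and Bub1b to Cdc20, which activates the anaphase-promoting complex, Birc5 (survivin) and the topoisomerase Top2a. The level in rFGF4 mouse 1 over the median of the other rFGF4 mice had a median of 3.39 over the 13 genes (range 2.39 to 4.59). For vehicle mouse 5 the corresponding median was 3.78 (range 1.29 to 9.52, the lowest for Aurka and the highest for Aurkb). Over all tested genes these ratios had medians of 1.32 and 1.21. The 7 tested mitotic genes all had fitted changes above 0, between 0.05 and 0.24, and none passed the test. The signs of several were not stable. Without rFGF4 mouse 1 alone Mki67 (-0.07), Ccnb2 (-0.14) and Cdc25b (-0.03) were below 0. Without both rFGF4 mouse 1 and vehicle mouse 5 Aurka was at -0.08. In that fit Mki67 (0.19), Cdc25b (0.17), Cdc20 (0.13), Plk1 (0.11), Birc5 (0.10) and Ccnb2 (0.07) were above 0. Both libraries with high mitotic genes also had the 2 highest macrophage, injury and lymphoid sums given above. The injury sum of vehicle mouse 5 (374 FPKM) was close to that of rFGF4 mouse 2 (346 FPKM). Only 4 of the 7 injury genes had rFGF4 mouse 1 and vehicle mouse 5 highest. The part of these sums in the level of the mitotic genes was not tested.

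Genes of DNA replication were ordered in the same way. Pcna, the sliding clamp of DNA polymerase and the most abundant of the 8 (chr2:132249162-132253314), was at 29.2, 20.9, 16.5 and 15.4 FPKM in the rFGF4 mice and 15.1, 12.9, 14.7 and 23.3 in the vehicle mice. All 4 rFGF4 values lay above 3 of the vehicle values, and vehicle mouse 5 lay above 3 of the rFGF4 values. The log2 fold change was 0.29 with a standard error of 0.24 (two-sided exact permutation test, p = 0.286). The change was 0.11 without rFGF4 mouse 1 and 0.46 without vehicle mouse 5. Without both of these libraries the groups no longer overlapped (0.28, standard error 0.14; limma, unadjusted p = 0.0966, adjusted p = 0.753). In that comparison of 3 against 3 mice, 2 of the 37 genes, Pcna and Cdkn1b, had groups that did not overlap (5.41%), against 13.3% of all tested genes.

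Rrm2, the small subunit of ribonucleotide reductase, which supplies deoxynucleotides (chr12:24708241-24714146), had the largest fitted change of the replication genes. It was at 4.68, 1.72, 1.86 and 1.46 FPKM in the rFGF4 mice and 1.43, 1.72, 1.08 and 1.98 in the vehicle mice. The difference of 0.35 (standard error 0.27; two-sided exact permutation test, p = 0.314) rested on rFGF4 mouse 1, and without that mouse it was 0.08. Mcm2 to Mcm7 encode the 6 subunits of the replicative helicase and were described after their values were seen. Their means were between 1.84 and 5.50 FPKM in either group, and their fitted changes ran from -0.09 for Mcm3 to 0.25 for Mcm7. Mcm6 (chr1:128331590-128359664) was at 9.58, 3.10, 1.85 and 2.83 FPKM in the rFGF4 mice and 2.76, 3.23, 2.56 and 5.07 in the vehicle mice, with rFGF4 mouse 1 at 3.39 times the median of the other rFGF4 mice.

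For 8 of 8 replication genes rFGF4 mouse 1 was the highest library and vehicle mouse 5 the second. The ratio of rFGF4 mouse 1 to the median of the other rFGF4 mice had a median of 2.63 (range 1.77 to 3.39), and that of vehicle mouse 5 a median of 1.72 (range 1.39 to 2.48). Of the 37 tested cell cycle genes, 22 (59.5%) had these 2 libraries highest, against 31.97% of all tested genes, and of all 45 the count was 30. After each library was scaled to the same median ratio over tested genes, an alternative added after seeing the data, the counts were 19 of 37 (51.4%) against 15.6% and 27 of all 45, with 13 of 13 mitotic and 7 of 8 replication genes.

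**Figure D2:**
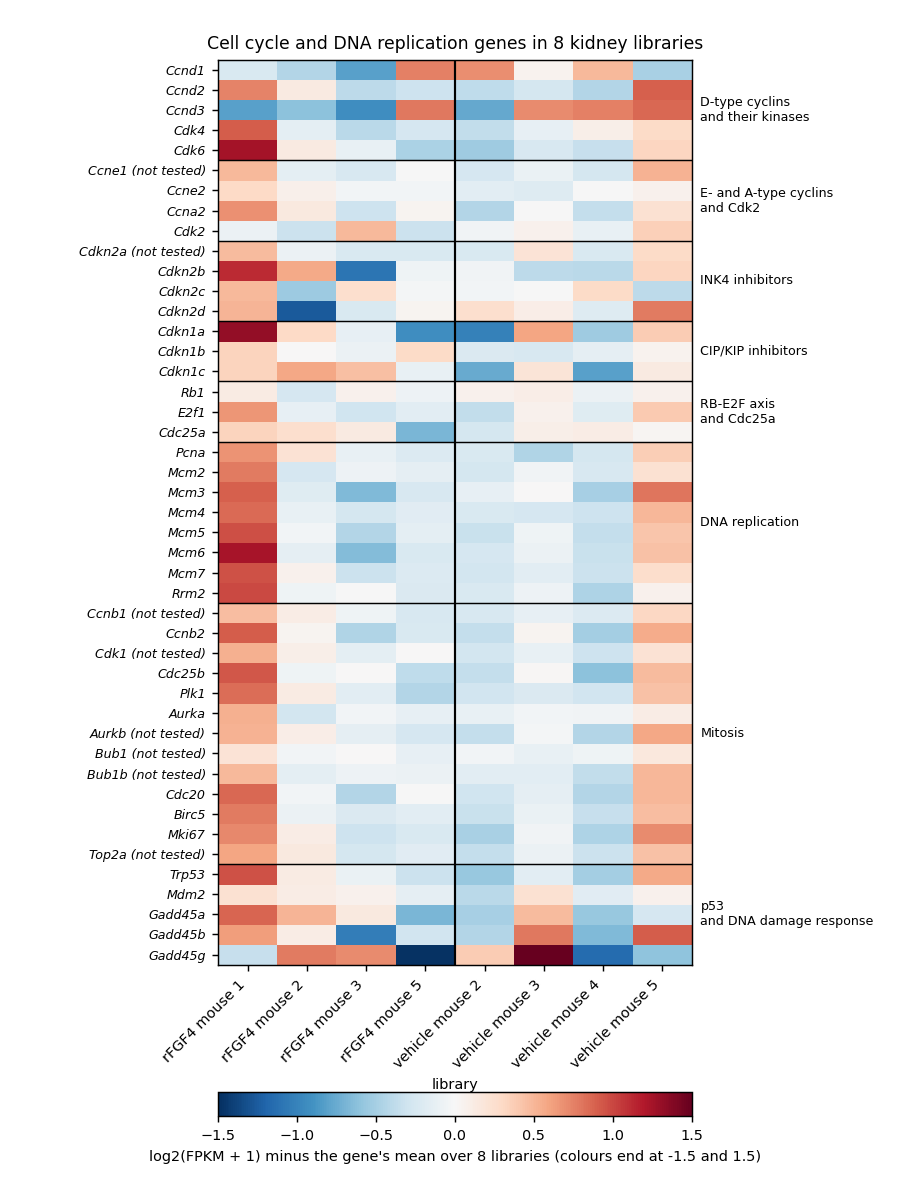
Level of each of the 45 genes (rows, by role) in each library (columns; rFGF4 left of the vertical line, vehicle right), as log2(FPKM + 1) minus the gene's mean over the 8 libraries. The columns of rFGF4 mouse 1 and vehicle mouse 5 are red for the replication and mitosis rows. These 2 libraries are highest for 30 of the 45 genes, and Ccnd1, Ccnd3, Cdk2, Cdkn1c and Gadd45g are among those that depart from that order.

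The promoters of genes that moved together across mice are shown for their shared sequence elements. Promoters from RefSeq (GRCm38.p6), 250 bases before to 50 after the start, were matched for 37 of the 45 genes and searched on both strands. Not matched were Aurkb, Ccna2, Ccnd1, Ccnd2, Ccne2, Cdkn1c, Mcm4 and Rb1. Mitotic promoters commonly hold a cell cycle genes homology region (CHR, TTTGAA), bound by the MuvB complexes, with upstream CCAAT boxes, and E2F sites are known from replication genes. The CHR was found in 8 of 12 mitotic promoters and a CCAAT box in 11 of 12, and 8 of 12 held both. Over all 27025 promoters the shares were 18.1%, 37.9% and 7.12%, and over the 10376 promoters of tested genes 11.7%, 38.2% and 4.68%. An E2F element (TTTCCCGC, TTTGGCGC, TTTCGCGC or TTTGCCGC) was found in 4 of 7 replication promoters and 1 of 12 mitotic promoters, against 2.3% of all promoters and 3.8% of those of tested genes. A CCAAT box was found in 7 of 7 replication promoters, but also in 5 of 5 promoters of the p53 and DNA damage genes, of which 1 of 5 had rFGF4 mouse 1 and vehicle mouse 5 highest. Below are 3 mitotic promoters (Mki67 at chr7:135716350-135716629, minus strand; Ccnb2 at chr9:70421525-70421804, minus strand; Cdc20 at chr4:118437314-118437593, minus strand), 2 helicase promoters (Mcm5 at chr8:75109259-75109538, plus strand; Mcm6 at chr1:128359676-128359955, minus strand) and, as a gene with none of the 3 elements, Cdk4 (chr10:127063285-127063564, plus strand). Each is printed 5′ to 3′ over 280 bases, ending 30 bases into the transcribed part, with CHR, CCAAT and E2F letters on either strand in capitals.
Mki67: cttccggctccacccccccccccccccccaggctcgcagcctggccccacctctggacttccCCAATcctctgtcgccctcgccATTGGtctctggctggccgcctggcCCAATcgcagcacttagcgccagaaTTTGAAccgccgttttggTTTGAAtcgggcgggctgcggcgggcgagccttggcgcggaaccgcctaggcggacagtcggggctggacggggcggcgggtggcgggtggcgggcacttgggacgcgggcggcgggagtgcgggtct
Ccnb2: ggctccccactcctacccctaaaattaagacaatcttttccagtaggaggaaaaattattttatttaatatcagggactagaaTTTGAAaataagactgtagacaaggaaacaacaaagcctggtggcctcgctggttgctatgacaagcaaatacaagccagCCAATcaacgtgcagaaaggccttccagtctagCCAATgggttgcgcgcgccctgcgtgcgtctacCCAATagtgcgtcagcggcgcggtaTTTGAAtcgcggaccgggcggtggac
Cdc20: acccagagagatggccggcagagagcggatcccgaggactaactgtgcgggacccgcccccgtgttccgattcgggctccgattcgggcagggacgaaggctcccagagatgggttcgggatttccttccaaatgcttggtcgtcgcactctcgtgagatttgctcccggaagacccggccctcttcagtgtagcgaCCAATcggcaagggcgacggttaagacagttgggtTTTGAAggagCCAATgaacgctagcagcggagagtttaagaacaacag
Mcm5: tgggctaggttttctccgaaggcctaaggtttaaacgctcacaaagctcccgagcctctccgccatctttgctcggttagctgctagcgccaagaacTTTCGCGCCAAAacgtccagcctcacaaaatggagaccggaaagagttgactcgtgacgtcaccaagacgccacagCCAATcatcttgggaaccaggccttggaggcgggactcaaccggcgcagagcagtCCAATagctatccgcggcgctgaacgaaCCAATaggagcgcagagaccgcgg
Mcm6: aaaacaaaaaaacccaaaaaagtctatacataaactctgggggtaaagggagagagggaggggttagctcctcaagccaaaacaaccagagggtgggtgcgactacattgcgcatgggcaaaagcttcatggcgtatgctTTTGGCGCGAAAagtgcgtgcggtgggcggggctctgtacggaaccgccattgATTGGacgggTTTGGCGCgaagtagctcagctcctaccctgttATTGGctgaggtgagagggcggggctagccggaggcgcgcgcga
Cdk4: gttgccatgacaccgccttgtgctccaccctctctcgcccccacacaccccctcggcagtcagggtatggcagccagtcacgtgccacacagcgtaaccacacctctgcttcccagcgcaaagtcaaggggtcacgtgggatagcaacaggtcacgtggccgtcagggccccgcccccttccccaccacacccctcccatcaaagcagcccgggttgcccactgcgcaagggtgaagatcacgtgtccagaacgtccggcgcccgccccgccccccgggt
The Mki67 and Ccnb2 promoters each held 2 CHR and 3 CCAAT matches, and that of Cdc20 held 1 CHR with 2 CCAAT matches. In Cdc20 the CHR began 18 bases before the start, between the 2 CCAAT boxes. In Mcm5 the capitals TTTCGCGCCAAA hold 2 E2F matches on opposite strands that overlap, as do those of TTTGGCGCGAAA in Mcm6, which has a further E2F match beginning 47 bases before the start. Lacking the 3 elements did not go with another order of mice. Cdk4 also had rFGF4 mouse 1 (38.8 FPKM) and vehicle mouse 5 (24.9 FPKM) highest. E2f1 and the mitotic gene Birc5 held none of the 3 elements and had the same 2 libraries highest. A match describes these letters only, and binding was not measured.

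The D-type cyclins did not share one order of mice. Ccnd1, the cyclin D gene with the highest level (chr7:144929931-144939925), was at 43.6, 37.4, 28.7 and 86.9 FPKM in the rFGF4 mice and 83.4, 53.1, 72.2 and 36.2 in the vehicle mice. Both libraries in which the mitotic genes were high were among the 4 lowest for Ccnd1. The log2 fold change was -0.37 with a standard error of 0.37 (two-sided exact permutation test, p = 0.429). Ccnd3 (chr17:47505051-47599691) had the lowest fitted change of the 37 genes. It was at 2.81, 3.40, 2.53 and 10.6 FPKM in the rFGF4 mice and 2.95, 9.99, 10.3 and 11.2 in the vehicle mice. The values fell near 3 or near 10 with none between, with 3 of 4 rFGF4 mice and 1 of 4 vehicle mice at the low level. The log2 fold change was -0.78 (standard error 0.48; 95% interval -1.89 to 0.32; two-sided exact permutation test, p = 0.257), and it passed the threshold without rFGF4 mouse 5 (-1.18) or without vehicle mouse 2 (-1.17). Ccnd3 has 21 annotated transcripts, and its exons overlap those of Bysl on the opposite strand, from which reads cannot be told apart without strand. Ccnd2 was highest in vehicle mouse 5 (3.88 FPKM) and rFGF4 mouse 1 (3.39 FPKM) and between 0.934 and 1.88 in the rest.

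Cdk4, the kinase partner of cyclin D (chr10:127063534-127067920), was at 38.8, 18.2, 15.03 and 16.8 FPKM in the rFGF4 mice and 15.5, 18.5, 21.6 and 24.9 in the vehicle mice. Apart from rFGF4 mouse 1, the rFGF4 values lay within or just below the range of the vehicle mice. The means were 22.2 ± 11.1 and 20.1 ± 4.08 (SD, n = 4 each), with a log2 fold change of 0.05 (standard error 0.29; 95% interval -0.62 to 0.73; two-sided exact permutation test, p = 0.943). The sign turned when libraries were scaled to one median ratio (-0.07) and without rFGF4 mouse 1 (-0.24), so no direction could be given. Cdk6, which acts in parallel to Cdk4, had means of 2.77 and 1.63 FPKM and a change of 0.40 (standard error 0.37).

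**Figure D3:**
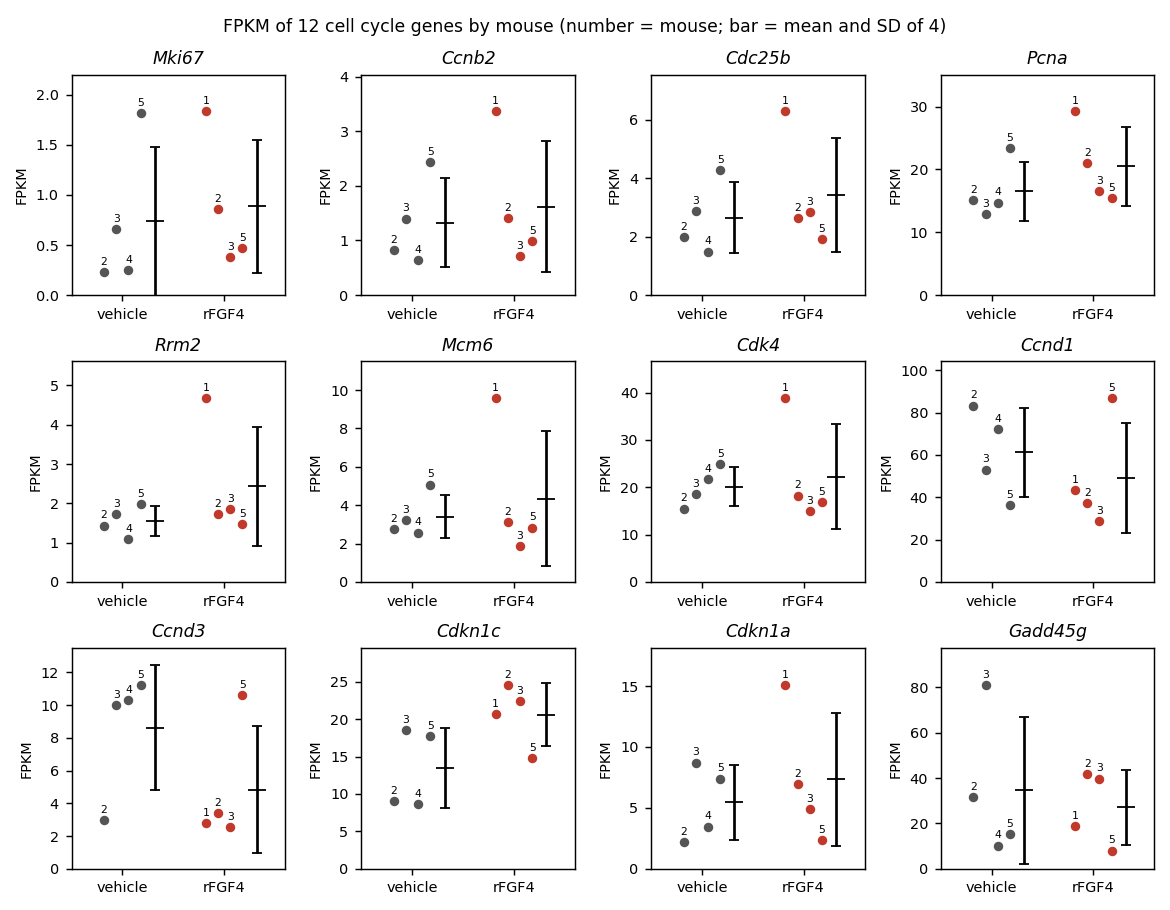
FPKM of 12 cell cycle genes (y axes start at 0) in the 4 vehicle (grey) and 4 rFGF4 (red) libraries, with the mouse number above each point and the mean and SD of each group as bars; the lower end of the vehicle bar for Mki67 is cut at 0. rFGF4 mouse 1 is the highest point for Mki67, Ccnb2, Cdc25b, Pcna, Rrm2, Mcm6, Cdk4 and Cdkn1a, and not for Ccnd1, Ccnd3, Cdkn1c or Gadd45g.

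Of the genes that carry the cell from G1 into S phase, Cdk2 (chr10:128697939-128705031) was at 2.02, 1.57, 3.503 and 1.58 FPKM in the rFGF4 mice and 2.10, 2.37, 1.99 and 3.12 in the vehicle mice. Its highest library was rFGF4 mouse 3, and the vehicle values lay inside the range of the rFGF4 values (log2 fold change -0.13, standard error 0.21). Ccna2, the cyclin of S phase and mitosis (chr3:36564865-36572150), was at 2.19, 1.19, 0.601 and 1.04 FPKM in the rFGF4 mice and 0.456, 0.980, 0.548 and 1.32 in the vehicle mice, with a change of 0.28 (standard error 0.24; two-sided exact permutation test, p = 0.314). Ccna2 followed the mitotic genes, with rFGF4 mouse 1 and vehicle mouse 5 highest. The E-type cyclin Ccne2 had means of 0.637 and 0.480 FPKM (change 0.14, standard error 0.12), and Ccne1 was below the filter with means of 0.467 and 0.430 FPKM. Rb1, the retinoblastoma gene (chr14:73183673-73325822), was the flattest of the 45. It was at 5.11, 3.72, 4.86 and 4.32 FPKM in the rFGF4 mice and 4.85, 5.01, 4.29 and 4.84 in the vehicle mice, a range of 1.37-fold from lowest to highest. E2f1 ranged 3.74-fold, highest in rFGF4 mouse 1 (2.30 FPKM) and vehicle mouse 5 (1.75 FPKM), and its fitted change was 0.04 (standard error 0.25). The phosphatase Cdc25a had a change of 0.02 (standard error 0.23).

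Among the INK4 inhibitors, which bind Cdk4 and Cdk6, Cdkn2b (p15, chr4:89306299-89311039) was at 6.13, 3.85, 0.533 and 2.13 FPKM in the rFGF4 mice and 2.16, 1.51, 1.48 and 3.12 in the vehicle mice. The rFGF4 mice spanned an 11.5-fold range that enclosed all vehicle values, and the change was 0.26 with a standard error of 0.44 (two-sided exact permutation test, p = 0.629). Cdkn2d (p19, chr9:21288410-21291407) was at 5.39, 0.864, 2.83 and 3.62 FPKM in the rFGF4 mice and 4.33, 3.80, 2.92 and 6.69 in the vehicle mice. The lowest value was that of rFGF4 mouse 2, and the change was -0.47 (standard error 0.38; two-sided exact permutation test, p = 0.314), or -0.12 without that mouse and -0.72 without rFGF4 mouse 1. Cdkn2c had a change of 0.08. Cdkn2a, whose locus encodes both p16 and p19ARF, was listed at the floor of the table in rFGF4 mice 3 and 5 and vehicle mice 2 and 4, and reached 0.626 FPKM in rFGF4 mouse 1 and 0.430 in vehicle mouse 5.

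Of the CIP/KIP inhibitors, Cdkn1c and Cdkn1b had the lowest p-values of the 37 genes, without passing the test, and Cdkn1a did not stand out. Cdkn1c (p57, chr7:143458339-143461050), which in the kidney is known from mature podocytes, was at 20.6, 24.6, 22.4 and 14.8 FPKM in the rFGF4 mice. In the vehicle mice it was at 9.09, 18.5, 8.69 and 17.7. Of the rFGF4 mice, 3 of 4 were above all vehicle mice, and rFGF4 mouse 5 lay between the 2 higher and the 2 lower vehicle mice. The means were 20.6 ± 4.19 and 13.5 ± 5.35 (SD, n = 4 each), and the log2 fold change was 0.63 with a standard error of 0.28 (95% interval -0.02 to 1.27; limma, unadjusted p = 0.0545, adjusted p = 0.918; two-sided exact permutation test, p = 0.114). Without rFGF4 mouse 1 and vehicle mouse 5 it was 0.77 (limma, unadjusted p = 0.0534). It passed the study's threshold when values were rescaled as TPM or to non-mitochondrial FPKM, with array weights, or without rFGF4 mouse 5, vehicle mouse 3 or vehicle mouse 5. It did not with median ratio scaling (0.51), other pseudocounts or filters, or without any of the other libraries (lowest 0.46, without vehicle mouse 4). The podocyte markers Nphs1 and Podxl were at 5.95 to 8.37 and 37.5 to 56.8 FPKM in the rFGF4 mice and at 4.02 to 8.43 and 29.1 to 46.2 in the vehicle mice, and their part in the level of Cdkn1c was not tested.

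Cdkn1b (p27) and Cdkn1a (p21) are described after their values were seen. Cdkn1b, an inhibitor of Cdk2 in resting cells, was at 8.76, 6.78, 6.24 and 8.40 FPKM in the rFGF4 mice and 5.62, 5.54, 6.06 and 7.01 in the vehicle mice, so that only vehicle mouse 5 overlapped the rFGF4 range (change 0.27, standard error 0.14; limma, unadjusted p = 0.0881). Cdkn1a, the main p53-induced CDK inhibitor, was at 15.1, 6.93, 4.93 and 2.38 FPKM in the rFGF4 mice and 2.20, 8.71, 3.47 and 7.40 in the vehicle mice. Its range within each group was larger than the difference between them (change 0.28, standard error 0.52).

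**Figure D4:**
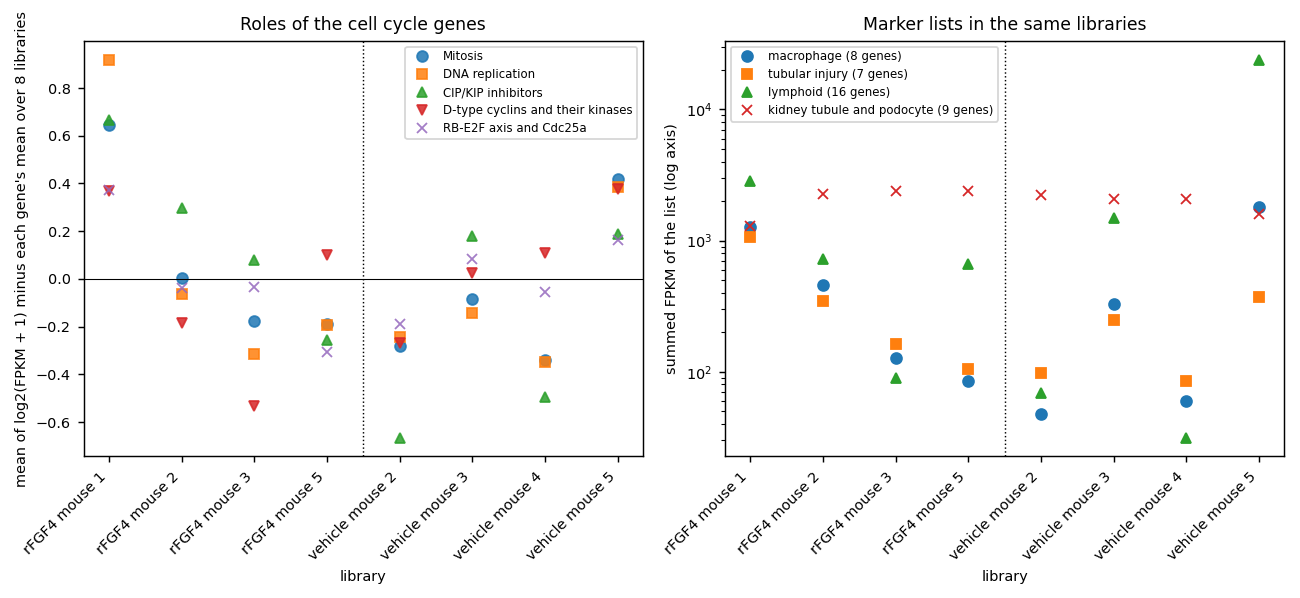
Left, mean over the genes of 5 roles of log2(FPKM + 1) minus each gene's mean, by library; right, summed FPKM of 4 marker lists in the same libraries on a log axis; the dotted line separates rFGF4 from vehicle mice. Mitosis (0.64 and 0.42) and DNA replication (0.92 and 0.38) are highest in rFGF4 mouse 1 and vehicle mouse 5, where the macrophage sum is 1273 and 1805 FPKM.

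The p53 and DNA damage genes split between the pattern of the mitotic genes and others. Trp53 itself was highest in rFGF4 mouse 1 (18.5 FPKM) and vehicle mouse 5 (13.9 FPKM) and between 5.76 and 9.92 in the other mice, with a change of 0.33 (standard error 0.34). Mdm2, the ligase that degrades p53, varied only 1.64-fold. Gadd45a, which responds to DNA damage and other stress (chr6:67035096-67037457), was at 29.3, 22.7, 17.4 and 9.27 FPKM in the rFGF4 mice and 10.7, 22.1, 10.1 and 12.9 in the vehicle mice. The rFGF4 mice included both the highest and the lowest value, and the change was 0.42 (standard error 0.36; two-sided exact permutation test, p = 0.371). It was 0.20 without rFGF4 mouse 1, and 0.72 without rFGF4 mouse 5, where it passed the threshold. Gadd45g (chr13:51846678-51848468) was at 18.7, 41.9, 39.7 and 7.98 FPKM in the rFGF4 mice and 31.6, 81.0, 10.3 and 15.4 in the vehicle mice. It spanned 10.2-fold without a split by group, and it was below the median of the other mice of its group in both rFGF4 mouse 1 (ratio 0.470) and vehicle mouse 5 (ratio 0.488). The change was -0.17 with a standard error of 0.71 (two-sided exact permutation test, p = 0.857). Gadd45b had a change of -0.29 (standard error 0.47).

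Exons of 17 of the 45 genes overlap those of another gene in the annotation, among them Cdk4 (Tspan31), Cdk2 (Pmel), Ccna2 (Exosc9), Rb1 (Lpar6 and Rcbtb2) and Cdkn1c (Gm44732), and without strand their values may include reads of these neighbours.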

How the data were processed

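Poly(A) RNA of 8 kidneys was sequenced in read pairs. The authors deposited FPKM per gene, made with StringTie from transcripts assembled in each library and then merged (Gffcompare). The submitters' processing notes name HISAT2 2.0, StringTie 1.3.0, Bowtie 0.12.2 and the build mm8, without their roles, and strandedness is not given in the sources used here. The authors' own comparison (fold change, its log2, p and q) is also in the table and was not used. A value of 0.0001 stands for 0. The table has no counts. The smallest steps of low values in genes with 1 transcript, if taken as 1 fragment, imply 17600000 to 21900000 fragments per library, at which Bub1 rests on 0 to 17.3 fragments and Mki67 on 44.5 to 371.4 per library. Positions are those of GENCODE M21 (GRCm38), which holds 99.5% of the identifiers.

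Genes with FPKM of at least 0.5 in 4 libraries (15150) were compared as log2(FPKM + 1). The fit used limma (version 3.58.1, R 4.3.3) with an intensity trend and Benjamini-Hochberg adjustment. The procedure was tested on simulated data. Single genes were also compared by a two-sided exact permutation test over the 70 splits, whose smallest p is 0.0286. The cell cycle genes, the other lists and the rules were chosen with earlier results of these data known. Values in every library are given for cell cycle genes past p under 0.05 or without overlap, for Mki67, Cdk4, Ccnb1, Ccnb2 and Cdkn2b, which the study measured or displayed, and for the tested gene of each role with the highest mean and with the largest change. From the further pathway lists the rule took genes with both an unadjusted p under 0.05 and no overlap. Any gene picked otherwise is marked so in the text. Each mouse gives 1 library, so n counts mice. Alternatives were other pseudocounts, filters and scalings, array weights, a replicate block and leaving out libraries. Plots were made in matplotlib 3.10.9 (Python 3.11.15). The values of 1 further podocyte marker are not reported here.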

Additional observations from a re-analysis of the deposited data

Results flagged for a closer look

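In 90 sets of 4 mice (45 genes in 2 groups), gaps between mice were measured on the log2(FPKM + 1) scale. Among them, 8 held a mouse whose gap to its nearest neighbour exceeded Dixon's critical share of the group's range. Chance gives about 1 in 20, or 4.5. All but 1 of the 8 were rFGF4 mouse 1 or vehicle mouse 5 at the high end. rFGF4 mouse 1 stood above the other rFGF4 mice for Mcm2 (gap 0.837 of the range), Mcm4 (0.863), Bub1b (0.894) and Birc5 (0.869). Vehicle mouse 5 stood above the other vehicle mice for Ccnd2 (0.867), Mcm4 (0.890) and Plk1 (0.906). The remaining one was Ccnd3 in vehicle mouse 2, which lay below the other vehicle mice (0.905).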

How the results depend on the processing

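The count of genes past the study's threshold, 231, was 348 with a pseudocount of 0.1, 686 as TPM, 490 with array weights, 54 at a 2-fold change, 700 by unadjusted p alone and 0 by adjusted p alone, and 187 to 575 with 1 library left out (575 without rFGF4 mouse 5, 432 without vehicle mouse 5). The count of cell cycle genes, 0, was 1 (Cdkn1c) as TPM, scaled to non-mitochondrial FPKM or with array weights, where 4.53%, 2.12% and 3.23% of all genes passed, and 0 to 3 with 1 library left out: Cdkn1c, Gadd45a and Ccnd3 without rFGF4 mouse 5 (3.80% of all genes), Ccnd3 without vehicle mouse 2 (1.41%), and Cdkn1c without vehicle mouse 3 (1.53%) or 5 (2.85%). The median change of the 37 genes, 0.15, ran from -0.08 (without rFGF4 mouse 1) to 0.33 (without vehicle mouse 5) with 1 library left out, and was -0.17 with the replicate block, 0.36 as TPM and 0.07 with median ratio scaling. The median of all genes, 0.09, was 0.29 as TPM, 0.16 scaled to non-mitochondrial FPKM and -0.01 with median ratio scaling, so directions this small depend on the scaling. Signs turned with median ratio scaling for Cdk4 (-0.069), with array weights for Cdk4 (-0.10) and Gadd45g (0.33), as TPM for Cdk2 (0.028), Rb1 (0.13) and Gadd45g (0.050), scaled to non-mitochondrial FPKM for Rb1 (0.014), and without both rFGF4 mouse 1 and vehicle mouse 5 for Cdk4 (-0.13), Cdkn2c (-0.19), Mcm6 (-0.11), Aurka (-0.08), Cdc25a (-0.08) and E2f1 (-0.03). With 1 library left out, changes ran from -0.070 to 0.41 for Mki67, -0.24 to 0.20 for Cdk4, -0.14 to 0.34 for Ccnb2, -0.071 to 0.67 for Cdkn2b, -0.12 to 0.0028 for Rb1, -0.028 to 0.44 for Cdc25b and -0.58 to 0.37 for Gadd45g. Mice sharing a number did not deviate together (correlations of -0.23, -0.16 and -0.39 for numbers 2, 3 and 5), and the replicate block over mice 2, 3 and 5 gave 1 cell cycle gene past the threshold (Cdkn2d; 1.73% of all genes) and changes of -0.86 for Cdkn2d, 0.45 for Cdkn1c, -0.20 for Mki67, -0.20 for Cdk4, -0.29 for Ccnb2, -0.16 for Cdkn2b, -0.014 for Rrm2 and -0.19 for Cdc25b. The count of other pathway genes at an unadjusted p under 0.05, 4, was 8 with array weights, 2 with the replicate block, and 2 to 7 with 1 library left out. The cause of these shifts was not tested. The table gives no counts, so counting error was not separated from the spread between mice, and for Gadd45g that spread left a 95% interval of -1.79 to 1.44.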

Other observations

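Of 117 further genes of the same pathways, in 6 lists, 86 were tested and 4 had an unadjusted p under 0.05 in limma, 2 higher and 2 lower, against 4.62% of all tested genes. The median changes of the lists lay between 0.03 and 0.12, beside 0.09 over all tested genes. Spc25, a subunit of the kinetochore complex that binds spindle microtubules, was at 4.90, 4.596, 5.79 and 4.38 FPKM in the rFGF4 mice and 2.10, 4.20, 3.37 and 2.66 in the vehicle mice. All rFGF4 mice were above all vehicle mice (log2 fold change 0.56, standard error 0.18; limma, unadjusted p = 0.0137, adjusted p = 0.918). Cks2, a small subunit that binds CDKs, was at 21.6, 17.995, 19.1 and 20.98 FPKM in the rFGF4 mice and 23.9, 22.1, 26.4 and 26.6 in the vehicle mice, and all rFGF4 mice were below all vehicle mice (-0.30, standard error 0.11; limma, unadjusted p = 0.0265, adjusted p = 0.918). Without overlap of the groups were 2 of the 86, against 3.33% of all tested genes. Sesn2, a stress-responsive p53 target, had means of 20.2 ± 3.41 and 14.5 ± 3.64 FPKM (SD, n = 4 each; 0.47 in limma, unadjusted p = 0.0400), and Tfdp2, a partner of E2F factors, had means of 0.542 ± 0.122 and 1.602 ± 0.846 FPKM (-0.70 in limma, unadjusted p = 0.0170). Tfdp2 was the 1 gene of the 86 past the threshold of the study, against 1.52% of all tested genes. The rule for the further lists asked for a low p and no overlap, so Sesn2 and Tfdp2, whose groups overlapped, were chosen after their values were seen. rFGF4 mouse 1 and vehicle mouse 5 were the 2 highest libraries for 14 of 17 tested replication fork genes, 8 of 13 of origin licensing, 8 of 14 of spindle and kinetochore, 4 of 8 of nucleotide supply, 10 of 20 p53 targets and 5 of 15 of the E2F, pocket protein and MuvB list, against 31.97% of all tested genes.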
